A study of Homo sapiens with 12 samples.

Results

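The genes described here are 9 markers of epithelial identity, EPCAM, CDH1, KRT7, KRT8, KRT18, KRT19, CLDN4, MUC1 and ELF3. They were chosen by name and not by a measured value, but with earlier results of these data known. Their values were read by symbol in each library of the count table. They are 9 of the 25369 genes listed, and all 9 were among the 12514 genes that passed the filter on low counts. Each library is bulk RNA from 1 tumour grown in a mouse from MDA-MB-231, an established human triple-negative breast cancer line, injected into the mammary fat pad. Groups were of 10 mice, which were injected into the peritoneum on 5 days a week once tumours had grown to 100 mm3, and RNA of 3 tumours per group was sequenced. Controls were given only the carrier, a mix of DMSO, PEG 300 and Tween 80, per the protocol, while their treatment label reads None. In the p38i group the drug was SB202190, which blocks p38 MAP kinases, dosed at 1 mg/kg/day. In the EZH2i group it was a blocker of the histone-methylating enzyme EZH2, dosed at 10 mg/kg/day, whose code the labels write both as EPZ-6428 and as EPZ-6438. The combination group received both compounds, with no separate doses given. The duration of treatment, the mouse strain and the age of the mice are not given in the sources used here. All tumours came from 1 cell line and carried host tissue, so in these bulk libraries fewer cells of a type and less RNA per cell cannot be told apart.

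Epithelial cells are held together by adhesion molecules on their sides and stiffened by keratin filaments inside. E-cadherin, the product of CDH1, is the core of the adherens junction, and its loss is a hallmark of the epithelial-mesenchymal transition, in which factors such as ZEB1 and the SNAI proteins bind E-box sequences and repress epithelial genes. MDA-MB-231 is known as a mesenchymal-like line with little E-cadherin. EZH2 places the repressive methyl mark of histone H3 lysine 27, and CDH1 is one of the genes it has been reported to silence in cancer cells. The comparisons ask how each inhibitor alone, and both together, left the epithelial genes that these tumours still transcribe.

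RefSeq promoter windows on GRCh38.p14, which run from 250 bases before to 50 bases after a gene's start, were at hand for 4 of the 9 genes, MUC1, ELF3, CLDN4 and KRT8. They are shown because the E-box CAGGTG is the sequence that ZEB and SNAI repressors bind, while AP-1 factors, which act downstream of MAP kinases, bind TGANTCA and grainyhead factors bind AACCGGTT. Capitals mark matches on either strand, so that CACCTG is the E-box read from the other strand. The MUC1 window (chr1:155192866-155193165, minus strand, 1 of 2 windows listed for the gene) held the E-box at positions -82 and -75, and the ELF3 window (chr1:202010337-202010636, plus strand) held it at -120. In the CLDN4 window (chr7:73830746-73831045, plus strand) the AP-1 letters stood at -242 and -161, and the KRT8 window (chr12:52926420-52926719, minus strand) held none of the motifs. Positions are those of the first base of a match, with the start site at 0.
MUC1: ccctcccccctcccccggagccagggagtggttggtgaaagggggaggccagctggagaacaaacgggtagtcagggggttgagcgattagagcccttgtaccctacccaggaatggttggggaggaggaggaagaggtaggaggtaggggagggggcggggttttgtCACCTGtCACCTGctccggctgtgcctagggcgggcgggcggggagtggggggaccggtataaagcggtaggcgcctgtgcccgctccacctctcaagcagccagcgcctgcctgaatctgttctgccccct
ELF3: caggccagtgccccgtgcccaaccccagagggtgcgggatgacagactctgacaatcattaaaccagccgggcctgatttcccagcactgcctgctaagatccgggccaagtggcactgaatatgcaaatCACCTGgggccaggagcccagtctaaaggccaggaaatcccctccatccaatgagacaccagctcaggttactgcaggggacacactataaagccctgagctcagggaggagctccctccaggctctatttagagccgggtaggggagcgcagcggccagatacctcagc
CLDN4: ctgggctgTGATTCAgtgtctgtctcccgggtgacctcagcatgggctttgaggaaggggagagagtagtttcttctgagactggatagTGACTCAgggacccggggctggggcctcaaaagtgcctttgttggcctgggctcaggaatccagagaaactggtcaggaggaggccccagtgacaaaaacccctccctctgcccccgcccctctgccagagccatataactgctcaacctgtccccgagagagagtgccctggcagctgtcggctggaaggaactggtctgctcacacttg
KRT8: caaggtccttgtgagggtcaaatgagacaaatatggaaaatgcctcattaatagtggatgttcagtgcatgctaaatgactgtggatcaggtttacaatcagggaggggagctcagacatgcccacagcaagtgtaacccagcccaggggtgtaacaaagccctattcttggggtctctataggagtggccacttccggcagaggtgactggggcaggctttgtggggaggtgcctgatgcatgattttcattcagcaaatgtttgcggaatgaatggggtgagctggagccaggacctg
Of 35116 such windows in the human table, 20.6% held the E-box, 7.71% the AP-1 letters and 0.134% the grainyhead letters on either strand. A match describes the letters only, and binding was not measured.

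Libraries held 2208771 to 4467942 counts, and values below are counts scaled to a common library size (CPM), scaled with edgeR's TMM factors. Levels in CPM were compared between libraries and not between genes. Within groups the libraries correlated with a Spearman coefficient of 0.939 to 0.979 across genes. On the first principal component, which held 32.6% of the variance of the 500 most variable genes, control 1-1 scored -34.19 and control 1-3 scored -18.86, while the other 10 libraries lay between -7.07 and 18.38. The nuclear RNA MALAT1 took 3.12% to 3.88% of the counts in the controls and 1.47% to 2.82% in the treated libraries, and its part in the results below was not tested. Of 8 mesenchymal genes read, VIM, the intermediate filament of mesenchymal cells, stood at 3774 to 6376 CPM throughout. CDH2, the N-cadherin gene and another of the 8, had group means of only 2.10 to 2.70 CPM. How much of the VIM came from tumour cells and how much from host cells was not tested. For 2 of the p38i libraries the labels do not say which tumour they are, and they are called p38i column 5 and p38i column 6. Every library's group rests on reading the column number in the labels as a header name, and a reading by position in the table would form other groups.

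No gene of the 9 passed an adjusted p of 0.05 in any comparison, and every one of the 9 had a lower fitted level than the control in each treated group. With p38i the median log2 difference over the 9 genes was -0.66, against -0.001 over all genes tested, and 9 of 9 lay below 0, as did 50.1% of all genes. With EZH2i the median was -0.85, against 0.0092 over all genes, and again 9 of 9 lay below 0, against 49% of all genes. With the combination the median was -0.30, against 0.0053 over all genes, with 9 of 9 below 0 beside 49.6% of all genes. The 3 comparisons share the same 3 control libraries, so their directions are not independent. Control 1-1 held the highest value of all 12 libraries for each of the 9 genes, and without it the medians were -0.39 for p38i, -0.54 for EZH2i and 0.0083 for the combination.

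By edgeR's quasi-likelihood test with Benjamini-Hochberg adjustment, 1.77% of all genes passed with p38i, 0.216% with EZH2i and 0.00799% with the combination, and 0 of the 9 in each. At an unadjusted p under 0.05, edgeR gave CLDN4, MUC1 and ELF3 with p38i, where 18.4% of all genes reached that level. It gave EPCAM, KRT8 and MUC1 with EZH2i, beside 14.7% of all genes, and 0 of the 9 with the combination, beside 16.3%. DESeq2 and limma-voom also called 0 of the 9 in these comparisons. Their unadjusted p was under 0.05 for 4 and 2 of the 9 with p38i, for 5 and 2 with EZH2i, and for 0 and 0 with the combination. The lowest adjusted p of any of the 9 genes was 0.0501, for DESeq2 with EZH2i.

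**Figure D1:**
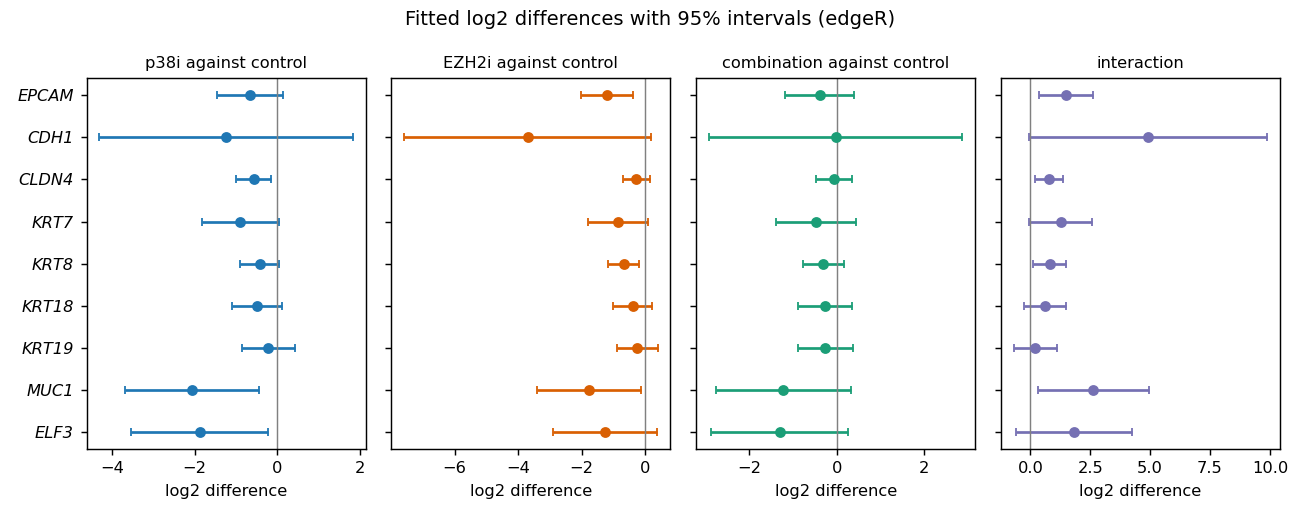
Fitted log2 differences of the 9 epithelial genes against control for p38i, EZH2i and the combination, and for the interaction, on the horizontal axes; points are edgeR estimates and bars are 95% intervals. All 27 points of the first 3 panels lie left of 0, the CDH1 bars are the widest in each panel, and the interaction points lie right of 0.

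Among the adhesion genes, EPCAM encodes the epithelial cell adhesion molecule of the lateral membrane. Its level was 101, 62.8 and 35.8 CPM in controls 1-1, 1-3 and 2-1, and 24.0, 35.1 and 25.3 CPM in EZH2i 5-3, 5-4 and 6-1. All 3 EZH2i libraries lay below all 3 controls, although EZH2i 5-4 and control 2-1 were nearly level. The group means were 66.4 ± 32.6 CPM in control and 28.1 ± 6.04 CPM in EZH2i (SD, n = 3), a log2 difference of -1.21 (SE 0.381, edgeR unadjusted p 0.00707, adjusted p 0.184). EPCAM and KRT8 were the 2 of the 9 genes whose EZH2i libraries all lay below the controls, as did those of 8.09% of all genes. With p38i, EPCAM stood at 54.9, 32.3 and 37.9 CPM, and with the combination at 65.1, 57.5 and 27.6 CPM. Both groups overlapped the controls, with log2 differences of -0.66 (SE 0.369) and -0.39 (SE 0.365). Without control 1-1 the EPCAM difference was -0.78 with EZH2i, -0.23 with p38i and 0.04 with the combination.

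CDH1, the E-cadherin gene, varied widely between tumours of the same group. The controls held 55.4, 28.8 and 4.03 CPM, from 133, 96 and 17 counts. The p38i libraries held 33.4, 0.552 and 3.92 CPM in 3-3, column 5 and column 6, from 98, 2 and 16 counts. Control 2-1 and p38i column 5 were the low ends of their groups, and p38i 3-3 lay between controls 1-1 and 1-3. The EZH2i libraries held 4.47, 0.249 and 2.62 CPM in 5-3, 5-4 and 6-1, from 11, 1 and 6 counts. The combination libraries held 42.2 and 40.7 CPM in 8-1 and 9-1 and 0.941 CPM in 9-2, from 144, 185 and 3 counts. So 5 of the 12 libraries, from the control, p38i and combination groups, held 28.8 CPM or more, and 0 of the 3 EZH2i libraries did. That level is the value of control 1-3, taken after the values were seen, and such a split was not counted over all genes. The highest library, control 1-1, stood 223-fold above the lowest, EZH2i 5-4, with a 95% counting interval of 39.3 to 8862 because the lowest rests on 1 count. The log2 difference from control was -3.70 with EZH2i (SE 1.73, interval -7.59 to 0.19, edgeR adjusted p 0.360), -1.24 with p38i (SE 1.37) and -0.02 with the combination (SE 1.29). The EZH2i libraries did not all lie below the controls, since EZH2i 5-3 exceeded control 2-1. Without control 1-1 the CDH1 difference was -2.86 with EZH2i, -0.39 with p38i and 0.81 with the combination.

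CLDN4 encodes a claudin, the barrier-forming protein of tight junctions. It held 84.1, 62.8 and 64.5 CPM in the controls and 56.2, 43.9 and 41.8 CPM with p38i. Every p38i library lay below every control, which was the case for this gene alone of the 9 and for 12.5% of all genes. The means were 70.4 ± 11.9 CPM and 47.3 ± 7.80 CPM (SD, n = 3), a log2 difference of -0.57 (SE 0.196, edgeR unadjusted p 0.0106, adjusted p 0.137). In EZH2i libraries CLDN4 stood at 67.1, 60.2 and 46.7 CPM and in combination libraries at 70.3, 75.3 and 54.9 CPM, both overlapping the controls. Their log2 differences from control were -0.27 (SE 0.196) and -0.07 (SE 0.193). Without control 1-1 the CLDN4 differences were -0.42 with p38i, -0.13 with EZH2i and 0.08 with the combination. With the combination, none of the 9 genes had every library below every control, as 11.2% of all genes did.

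**Figure D2:**
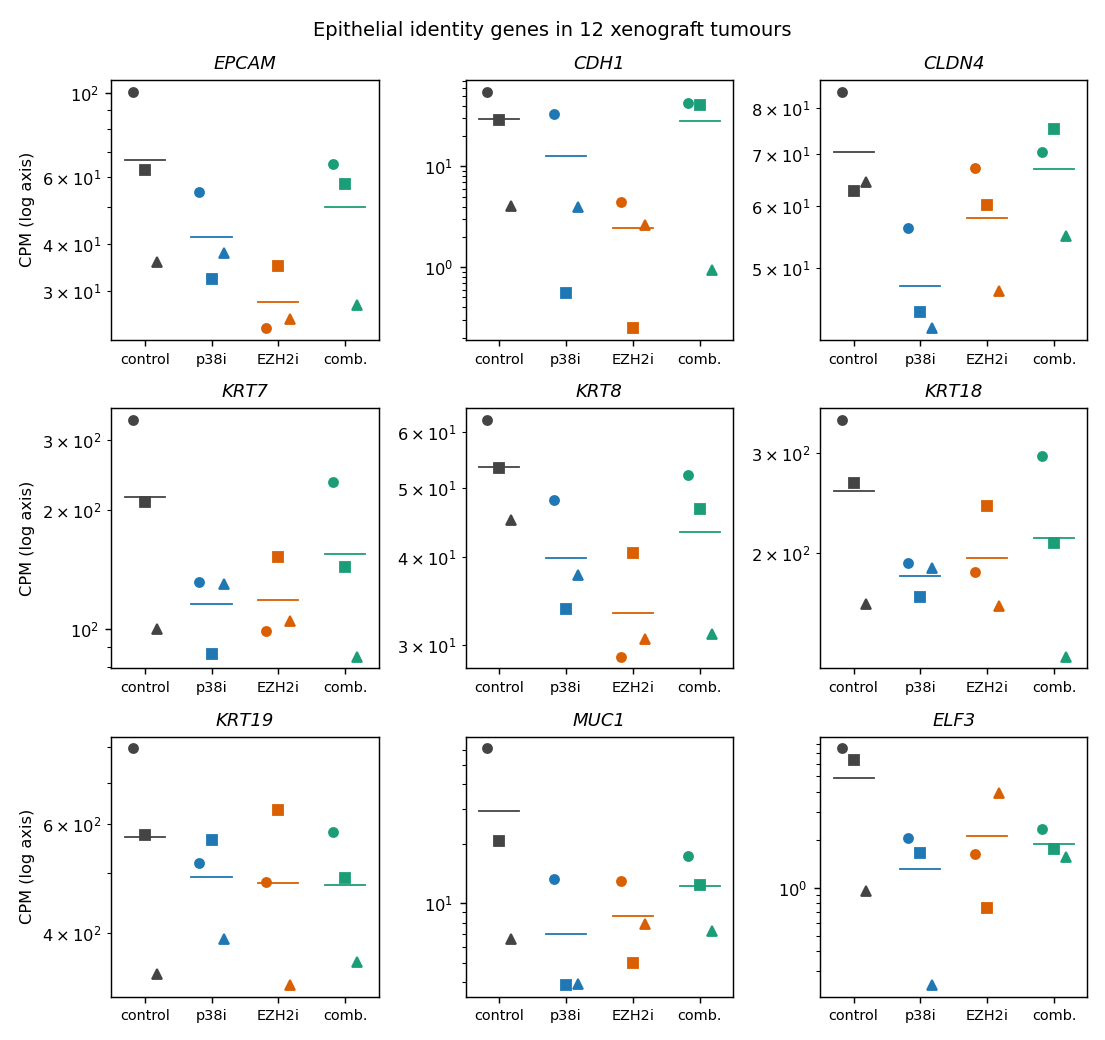
Level of each of the 9 epithelial genes in CPM on a log axis, in the control, p38i, EZH2i and combination groups; each point is 1 tumour (circle, square and triangle in the order control 1-1, 1-3, 2-1; p38i 3-3, column 5, column 6; EZH2i 5-3, 5-4, 6-1; combination 8-1, 9-1, 9-2) and each line a group mean, n = 3. Control 1-1 is the highest point in every panel, and CDH1 spans from 0.249 to 55.4 CPM.

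The keratins of simple epithelia pair into filaments, with KRT7 and KRT8 as type II chains and KRT18 and KRT19 as type I chains. KRT7 held 337, 210 and 100 CPM in the controls, 131, 86.1 and 130 CPM with p38i, 98.8, 151 and 105 CPM with EZH2i, and 234, 144 and 85.0 CPM with the combination. Only control 1-1, control 1-3 and combination 8-1 exceeded 200 CPM, and each treated group overlapped the controls. The log2 differences from control were -0.89 with p38i (SE 0.426), -0.85 with EZH2i (SE 0.427) and -0.48 with the combination (SE 0.422). Without control 1-1 they were -0.41, -0.37 and 0.0083.

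KRT8 held 62.4, 53.4 and 45.0 CPM in the controls and 28.9, 40.5 and 30.6 CPM with EZH2i. The 2 groups did not overlap, and the log2 difference was -0.67 (SE 0.227, edgeR unadjusted p 0.0099, adjusted p 0.202). In p38i libraries KRT8 stood at 48.1, 33.7 and 37.7 CPM and in combination libraries at 52.2, 46.7 and 31.1 CPM, each overlapping the lower controls, with log2 differences of -0.43 (SE 0.223) and -0.30 (SE 0.222). Without control 1-1 the KRT8 differences were -0.54 with EZH2i, -0.30 with p38i and -0.17 with the combination. KRT18, the usual partner of KRT8, ranged from 163 to 342 CPM in the controls, 167 to 192 CPM with p38i, 161 to 241 CPM with EZH2i and 131 to 296 CPM with the combination. Its log2 differences were -0.49, -0.38 and -0.27 (SE 0.287, 0.287 and 0.286), and without control 1-1 they were -0.22, -0.12 and -0.0038. KRT19 ranged from 343 to 795 CPM in the controls, and every treated group lay inside this range or just below it. Its log2 differences were the smallest of the keratins, -0.21, -0.24 and -0.26 (SE 0.296 for each), and without control 1-1 they were 0.11, 0.08 and 0.07. Reads of these keratins can be shared with processed copies elsewhere in the genome. The 3 such copies looked up, KRT8P41, KRT18P55 and KRT19P2, held at most 6 counts in any library. These counts cannot show how shared reads were assigned, because the counting program is not given.

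MUC1, a transmembrane mucin of the apical surface, was highest in control 1-1. It held 60.8, 20.7 and 6.64 CPM in the controls and 13.3, 3.86 and 3.92 CPM with p38i. The EZH2i libraries held 13.01, 4.97 and 7.86 CPM, and the combination libraries held 17.3, 12.3 and 7.22 CPM. Controls 1-1 and 1-3 exceeded all 9 treated libraries, while control 2-1 lay among them. The log2 differences were -2.07 with p38i (SE 0.745, edgeR adjusted p 0.169), -1.77 with EZH2i (SE 0.744, edgeR adjusted p 0.304) and -1.22 with the combination (SE 0.702, edgeR adjusted p 0.403). These values rest on control 1-1, without which they were -0.97, -0.67 and -0.12. Without control 2-1, the lowest control, the p38i difference was -2.56 with an edgeR adjusted p of 0.0333, the only case in which 1 of the 9 genes passed the threshold when a library was left out.

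ELF3, an ETS family transcription factor of epithelial cells, was near the limit of detection, at 1 to 21 counts per library. It held 7.49, 6.30 and 0.948 CPM in the controls and 2.05, 1.66 and 0.245 CPM with p38i. With EZH2i it held 1.63, 0.746 and 3.93 CPM, and with the combination 2.34, 1.76 and 1.57 CPM. Controls 1-1 and 1-3 again lay above all treated libraries, and control 2-1 among the lowest. The log2 differences were -1.88 with p38i (SE 0.780, edgeR adjusted p 0.214), -1.26 with EZH2i (SE 0.763) and -1.31 with the combination (SE 0.733). Without control 1-1 they were -1.45, -0.83 and -0.87.

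The combination was also set against each single agent, which shares its libraries with the comparisons above. Against p38i the median log2 difference of the 9 genes was 0.42, beside 0.0117 over all genes, and 8 of 9 lay above 0 (all but KRT19), beside 51.4% of all genes. Without combination 8-1 this median was 0.04. CLDN4 was higher in 2 of the 3 combination libraries than in every p38i library, with a log2 difference of 0.50 (SE 0.196, edgeR unadjusted p 0.0210, adjusted p 0.585). It was the 1 gene of the 9 at an unadjusted p under 0.05, beside 7.81% of all genes. Against EZH2i the median was 0.37, beside -0.0164 over all genes, and 7 of 9 lay above 0 (all but KRT19 and ELF3), beside 47.7%. EPCAM alone reached an unadjusted p under 0.05 there, beside 3.12% of all genes, with a log2 difference of 0.82 (SE 0.379, edgeR unadjusted p 0.0492, adjusted p 0.991). CDH1 was 3.68 higher on the log2 scale in the combination than with EZH2i (SE 1.72, edgeR unadjusted p 0.0598), carried by combination 8-1 and 9-1, while combination 9-2 lay within the EZH2i range. With edgeR, 0% of all genes and 0 of the 9 passed the adjusted threshold in both comparisons. DESeq2 and limma-voom also called 0 of the 9 genes there, with 1 and 1 at an unadjusted p under 0.05 against p38i and 2 and 0 against EZH2i.

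The interaction is the difference of the combination from control beyond the sum of the single-agent differences, on the log2 scale. For the 9 genes its median was 1.27, beside -0.0065 over all genes, and 9 of 9 lay above 0, beside 49.3% of all genes. A value above 0 means that the combination lay less far below the control than the sum of the 2 single-agent differences. EPCAM, KRT8, CLDN4 and MUC1 reached an unadjusted p under 0.05, as did 13.1% of all genes. Their interaction values were 1.48 (SE 0.529), 0.80 (SE 0.318), 0.78 (SE 0.277) and 2.62 (SE 1.06). With edgeR none of the 9 passed the adjusted threshold, as 0.024% of all genes did, and the lowest adjusted p was 0.239, for CLDN4. DESeq2 and limma-voom called 0 of the 9, with 6 and 4 at an unadjusted p under 0.05. Because the control enters the interaction with the sign opposite to its part in both single-agent comparisons, a high control library moves all of them. Without control 1-1 the median interaction was 0.79, and EPCAM stood at 1.05, KRT8 at 0.67, CLDN4 at 0.63 and MUC1 at 1.52.

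Spread between tumours given the same treatment set several of the 9 genes apart from most of the transcriptome. The SD of log2 CPM within groups was 2.18 for CDH1, the second largest of the 12514 genes tested, below that of MIR205HG (2.25) and above that of LGR6 (2.15). MUC1 followed with 1.01, larger than 98.2% of genes, and ELF3 with 0.92, larger than 96.9%, although its low counts add counting error. KRT7 at 0.62 and EPCAM at 0.55 were larger than 89.2% and 85.1% of genes. KRT19 at 0.45 and KRT18 at 0.43 were larger than 75.6% and 73.5%, while KRT8 at 0.29 and CLDN4 at 0.24 lay below the median over all genes, 0.307.

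**Figure D3:**
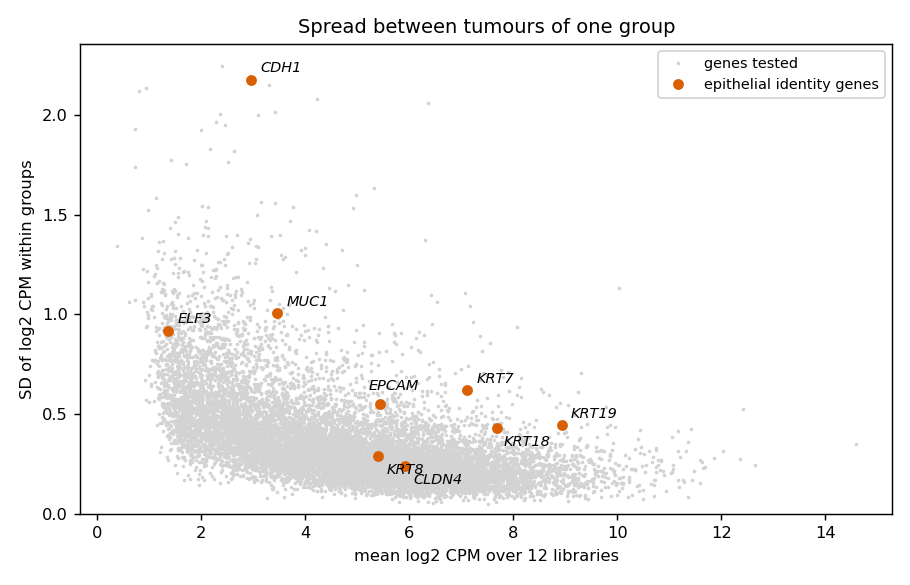
SD of log2 CPM between tumours of the same group (vertical axis) against mean log2 CPM over the 12 libraries (horizontal axis), for every gene tested (grey) and the 9 epithelial genes (orange). CDH1, at 2.18, lies at the top of the cloud, while KRT8 and CLDN4 lie in its lower part.

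Most of the 9 genes were high, or low, in the same tumours. Relative to each gene's own mean over the 12 libraries, all 9 were above it in control 1-1, control 1-3 and combination 8-1, and 8 in combination 9-1. In p38i column 6 and combination 9-2, 0 of the 9 were above their mean. The median deviation ran from 1.24 on the log2 scale in control 1-1 to -0.49 in combination 9-2. Control 2-1, at -0.46, was near the bottom, below 8 of the 9 treated libraries. The p38i 3-3 tumour was at 0.09, above the other 2 p38i libraries at -0.39 and -0.32.

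Over the 12 libraries the 36 pairs among the 9 genes had Pearson correlations of log2 CPM between 0.41 and 0.96, with a median of 0.68. The median over all pairs of tested genes was -0.003. The highest values were those of KRT7 with KRT18, and EPCAM with KRT8, both at 0.96, and the lowest that of CDH1 with KRT19. MUC1 and ELF3 correlated at 0.81, and CDH1 with EPCAM at 0.84. The points share 4 treatment groups, the scaling of each library and control 1-1, so these coefficients are descriptions.

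For each gene, the tested genes outside the 9 with the highest correlation over the 12 libraries were listed, with their place in RefSeq's order of genes where they share its chromosome. The CDH1 pattern was most like that of MPZL2 (0.95), an epithelial adhesion molecule of the immunoglobulin superfamily, MIR205HG (0.92), the host gene of the microRNA miR-205, and MACC1 (0.92). MPZL2 held 75.8, 32.4 and 3.08 CPM in the controls, 24.5, 0.276 and 4.16 CPM with p38i, 4.07, 0.994 and 7.86 CPM with EZH2i, and 37.5, 18.3 and 2.51 CPM with the combination. As with CDH1, controls 1-1 and 1-3, p38i 3-3 and combination 8-1 and 9-1 were the 5 highest. MIR205HG held from 0.249 CPM in EZH2i 5-4 to 39.5 CPM in control 1-1. CDH3, the P-cadherin gene and the next gene to CDH1 in RefSeq order, correlated with it at 0.90, a neighbour singled out after its value was seen.

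**Figure D4:**
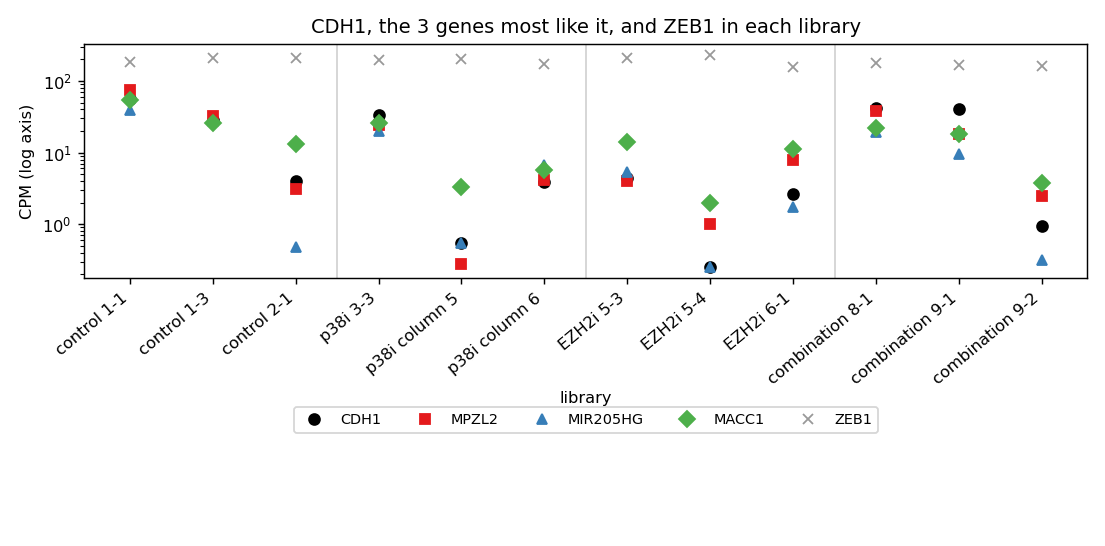
CPM on a log axis of CDH1, of MPZL2, MIR205HG and MACC1, the 3 genes most correlated with it, and of ZEB1 in each of the 12 libraries, with vertical lines between groups. CDH1 and its 3 closest genes are high in controls 1-1 and 1-3, p38i 3-3 and combination 8-1 and 9-1, while ZEB1 stays between 158 and 234 CPM.

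MUC1 was most like EFNA1 (0.96), which lies 5 genes from it on the same chromosome, followed by CTSO (0.92) and CHMP4C (0.92). EFNA1, an ephrin ligand, held 73.3, 41.1 and 12.3 CPM in the controls and 7.34 to 41.3 CPM in the treated libraries. CLDN4 was most like GTF2IRD1 (0.96), which lies 8 genes from it, then GORAB (0.91) and CASD1 (0.90). KRT19 was most like TEAD2 (0.96), TUBB3 (0.94) and FHL3 (0.94), and KRT18 most like VWA1 (0.94), TUBB3 (0.94) and FAM83H (0.93). KRT7 was most like FAM83H, RHOD and VWA1, at 0.933 to 0.945. EPCAM and KRT8 were both most like PLCH2, at 0.93 and 0.95, and ARHGEF5 was also among the 3 closest to KRT8. ELF3 was most like ASS1, CSGALNACT1 and ATP9A, at 0.91 to 0.93.

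Other epithelial genes were read as lists. Of 28 genes of cell junctions and polarity, 24 were tested, and 19, 20 and 18 of them lay below the control with p38i, EZH2i and the combination, with medians of -0.42, -0.36 and -0.32, beside 50.1%, 49% and 49.6% of all genes below 0. A single one passed the threshold, where 1.77% of all genes did with p38i. It was PPL, the desmosome-associated protein periplakin, which fell with p38i. PPL held 132, 105 and 98.4 CPM in the controls and 41.9, 37.3 and 23.5 CPM with p38i, with no overlap, and the log2 difference was -1.71 (SE 0.353, edgeR adjusted p 0.0364). Its call was lost when any 1 of 6 libraries was left out (controls 1-1 and 1-3, each p38i library and combination 9-1), with edgeR adjusted p between 0.0541 and 0.151 and a log2 difference of -1.48 to -1.88, and at 0.0593 when no filter on low counts was used. PPL stood at 67.5, 22.9 and 46.3 CPM with EZH2i and at 85.9, 63.8 and 41.7 CPM with the combination, also below every control. The share of all genes with every treated library below every control was 12.5% with p38i, 8.09% with EZH2i and 11.2% with the combination.

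Of 12 further keratins, 6 were tested and 0 passed, with medians of -0.96, -1.31 and -0.44 against control for p38i, EZH2i and the combination. Of 20 epithelial surface and secreted proteins, 10 were tested and 0 passed, with medians of -0.57, -0.92 and -0.63. In these lists, the highest correlations with CDH1, over 12 libraries, were those of KRT81 (0.91), MAL2 (0.88) and ST14 (0.87). Other members showed no such relation or the opposite one, as KRT15 (-0.12), AP1M2 (-0.19) and CD9 (0.06) did; all these genes were picked for their coefficients. At an unadjusted p under 0.05 edgeR gave 2, 3 and 1 of the 6 keratins and 2, 5 and 1 of the 10 surface proteins, where 18.4%, 14.7% and 16.3% of all genes reached that level.

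Of 16 epithelial transcription and splicing factors, 12 were tested and 0 passed, with medians of -0.15, -0.25 and 0.23. GRHL2, a grainyhead factor that maintains epithelial genes, had 2 to 22 counts per library, and its highest values, 5.83, 4.84 and 3.81 CPM, were in control 1-1, combination 9-1 and combination 8-1. ESRP1, an epithelial splicing factor, had 5 to 46 counts, highest in control 1-1 and 1-3 at 16.2 and 13.8 CPM. OVOL2 had 0 to 2 counts and was not tested. Other members of the list lay the other way, and of these KLF5 and TFAP2A were singled out after their values were seen. KLF5 held 50.5 to 68.7 CPM in the controls and 74.9 to 107 CPM with p38i, with a log2 difference of 0.61 (SE 0.199, edgeR adjusted p 0.122). TFAP2A held 14.5 to 20.4 CPM in the controls and 25.7 to 42.6 CPM with p38i, with a log2 difference of 0.84 (SE 0.247, edgeR adjusted p 0.0956). Neither pair of ranges overlapped, and the share of all genes with every p38i library above every control was not counted. In the opposite direction that share was 12.5%. The correlations of KLF5 and TFAP2A with CDH1 over the 12 libraries were -0.04 and -0.23, against 0.80 for GRHL2 and 0.47 for ESRP1.

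Of 6 repressors linked to the epithelial-mesenchymal transition, 5 were tested and 0 passed, with medians of -0.03, -0.0028 and 0.09. The 5 ran from -1.214 to 0.475 with p38i, from -1.696 to 1.123 with EZH2i and from -0.2475 to 1.498 with the combination. ZEB1 ranged from 158 to 234 CPM across the libraries. It held 187 CPM in control 1-1, the library with the most CDH1, and 234 CPM in EZH2i 5-4, the one with the least. Its combination libraries, at 163 to 180 CPM, lay below every control, at 187 to 212 CPM, as did those of 11.2% of all genes. ZEB2 ranged from 27.8 to 46.3 CPM. SNAI1 had 1 to 18 counts per library. Its EZH2i libraries, at 0.4365 to 1.626 CPM, lay below every control, at 2.102 to 4.163 CPM, as did those of 8.09% of all genes. Mean levels were 3.115 CPM in the controls, 1.28 CPM with p38i and 3.225 CPM with the combination. SNAI1 correlated with CDH1 at 0.69 over the 12 libraries, against -0.181 to 0.254 for the other repressors tested. TWIST1 went the other way, with means of 2.737 CPM in the controls and 6.406 CPM with EZH2i. SNAI2 held 26.7 to 37.0 CPM in the controls and 51.5 to 59.0 CPM with the combination, with a log2 difference of 0.78 (SE 0.198, edgeR adjusted p 0.165). These ranges did not overlap, and the share of all genes with every combination library above every control was not counted. Of 8 mesenchymal genes, all were tested and 0 passed, with medians of 0.0084, 0.08 and 0.0004. Single members ranged from -1.41 to 0.60 with p38i. The lowest was FN1, the fibronectin gene, singled out after its value was seen, at 4639 to 14360 CPM in the controls and 2311 to 4408 CPM with p38i (edgeR adjusted p 0.0656). The summed level of the 8 genes was 12030 to 20960 CPM in the controls and 9790 to 11510 CPM with p38i. Most of this sum was FN1 and VIM. The mean of FN1 was 9326 CPM in the controls and 3507 CPM with p38i, and that of VIM 5361 and 5462 CPM. With p38i, 4 of the 8 genes lay below 0 and 4 above, beside 50.1% of all genes below 0.

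Markers of other epithelia and of host tissue were read in the same libraries. A list of 10 keratinocyte and basal epithelial markers summed to 102 to 152 CPM in the controls and 121 to 167 CPM in the treated groups, with LOR at 0 in all 12 libraries. Most of this sum was KRT10, with group means of 109 to 142 CPM. A list of 10 milk and luminal mammary markers summed to 3.43 to 9.95 CPM, with CSN3, LALBA and MUCL1 at 0 in all 12 libraries. Most of it was PRLR, with group means of 4.90 to 6.23 CPM. Skeletal muscle markers summed to 756 CPM in p38i column 6 and to at most 30.0 CPM in any other library, and without that library the median difference of the 9 genes with p38i was -0.58. Fibroblast, macrophage and endothelial lists overlapped between all groups in their summed levels, at 286 to 1121, 15.0 to 29.3 and 13.4 to 31.4 CPM. With p38i, where 1.77% of all genes passed, 1 of 7 tested fibroblast markers fell (PDGFRB, -2.03, edgeR adjusted p 0.0433). Of these 7, 5 lay below 0 and 2 above, up to 1.23. Of 4 tested endothelial markers, 1 passed and rose (TIE1, 3.36, edgeR adjusted p 0.0298), while the other 3 lay below 0. TIE1 was near the limit of detection, at 0 to 0.711 CPM in the controls and 3.07 to 7.095 CPM with p38i. Both calls were lost when any 1 of the p38i libraries, control 1-1 or control 1-3 was left out. In those fits the TIE1 difference was 2.97 to 3.62 and the PDGFRB difference -1.39 to -2.28. The PDGFRB call was also lost with limma-voom (adjusted p 0.0921), without a filter (edgeR adjusted p 0.0622), with only the groups compared (edgeR adjusted p 0.100), and without EZH2i 6-1 or any 1 of the combination libraries (edgeR adjusted p 0.0552 to 0.0625). The part of host cells in the levels of the 9 genes was not tested.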

How the data were processed

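RNA-seq counts per gene symbol were deposited by the authors as 1 table of raw, unscaled read counts. Per the submitters' processing notes, Trim Galore 0.5.0, STAR 2.6.0 and hg19 were used. The counting program, annotation, strand setting and any removal of mouse reads are not given in the sources used here. The labels' protocols name both a SMARTer mRNA kit and QuantSeq, so it is unsettled whether whole transcripts or 3' ends were read. Libraries were joined to samples by the number their descriptions cite, taken as a header name. The header lists these names in alphabetical and not numerical order, so a reading by position would give most libraries, and the groups they form, to other tumours, and every group value here rests on the reading by name. By it, 2 p38i samples share column 5 and none has column 6, which was taken as p38i by elimination. Of the columns, 0 were left unmapped, and 3 lines naming no gene held 0 counts (a share of 0) and were left out.

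Counts were filtered (filterByExpr), scaled by TMM and fitted in 1 model of all 12 libraries with 1 term per group by edgeR 4.0.16 (R 4.3.3, robust quasi-likelihood F tests, two-sided). P-values were Benjamini-Hochberg adjusted over 12514 genes with a threshold of 0.05, and every adjusted p comes from this fit unless another tool is named. They set group differences against the spread between tumours of separate mice, which was estimated over all 12 libraries with information shared between genes. The biological coefficient of variation was 0.219. Correlations used log2 CPM with a prior count of 2. Intervals of single counts are exact Poisson or conditional binomial and cover counting error only. Library totals of 2208771 to 4467942 counts put a level of 1 CPM at a few counts.

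The fit was tested on simulated counts with known changes in the p38i group, 50 genes of each size. It recovered 2% of log2 changes of 0.5, 50% of those of 1, 70% of those of 1.5 and 86% of those of 2. Of its 110 calls, 6 were false. Genes of low level were not among those changed, so recovery for a gene such as ELF3 was not tested. A gene of the 9 that did not pass may therefore still have changed. The 9 genes, the lists and the rule for naming others (genes past the threshold, 7 regulators, and the 3 most correlated genes of each member) were chosen with earlier results of these data known. A gene that this rule names is not reported here. Alternatives were library totals, upper quartile scaling, DESeq2 1.42.0, limma-voom (limma 3.58.1), other filters, fits of only the groups compared, and leaving out each library. No hg19 reference was used, and promoter windows are RefSeq's on GRCh38.p14.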

Additional observations from a re-analysis of the deposited data

How the results depend on the processing

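The number of the 9 genes past the threshold was 0 under every alternative run in all 6 comparisons, except 1 (MUC1) with p38i without control 2-1. Counts over all genes were less stable. For p38i the count of 221 was 632 with DESeq2 and 2 to 568 when 1 library was left out. For EZH2i, 27 became 232 with DESeq2, 16 with limma-voom, 114 without a filter and 4 with only the groups compared, and 2 to 125 when 1 library was left out. For the combination, 1 became 3 with library totals alone, 167 with DESeq2, 42 without a filter and 4 with only the groups compared, and 0 to 229 when 1 library was left out. The combination gave 0 genes against p38i, but 7 with DESeq2 and 1 without a filter, and 0 against EZH2i, but 1 with DESeq2. For the interaction, 3 became 226 with DESeq2 and 70 without a filter, and 2 to 42 when 1 library was left out. The cause was not tested. Without control 1-1 the log2 difference changed sign for KRT19 with p38i (0.107), EZH2i (0.0802) and the combination (0.0650), and for EPCAM (0.0400), CDH1 (0.815), KRT7 (0.00832) and CLDN4 (0.0792) with the combination. The other ends of their ranges when 1 library was left out were -0.474, -0.499 and -0.515 for KRT19, and -0.692, -0.559, -0.892 and -0.144 for EPCAM, CDH1, KRT7 and CLDN4. With the combination, CDH1 was also above 0 with library totals (0.0322), without a filter (0.0165) and without combination 9-2 (0.537), as was CLDN4 without combination 9-2 (0.0564). The KRT19 interaction was -0.122 without control 1-1 and -0.0255 without EZH2i 6-1, and at most 0.457. The median of the 9 genes kept its sign except for the combination without control 1-1. Library totals moved the median of all genes by at most 0.0619. Fits of only the groups compared do not exist for the interaction, which uses all 4 groups. No paired analysis was possible because the groups share no replicate numbers. With 3 tumours per group the SE of a log2 difference from control ran from 0.193 for CLDN4 to 1.73 for CDH1, and CDH1 and ELF3 rest on as few as 1 count in a library.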
